A study of Mus musculus with 35 samples.

Results

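The genes described here are 8 regulators of G-protein signalling, Rgs1, Rgs2, Rgs3, Rgs4, Rgs5, Rgs10, Rgs16 and Rgs18, taken from the 22830 gene symbols with counts in mouse skin wounds. The members were chosen by name with earlier results of these data known, so counts and medians over them are descriptions. Rgs16 was picked for its higher level in day 19 wounds of Col5a1CKO mice. That day 19 difference is therefore given as a description with no test, and it supports nothing else in the text. All 8 genes passed the filter on low counts in each of the 9 comparisons.

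RNA from 35 wounds was sequenced in bulk. Col5a1CKO mice carried Col1a2CreERT, a tamoxifen-inducible Cre driven by a collagen enhancer that is active in fibroblasts, together with floxed Col5a1 on both alleles. WT mice were Cre-negative littermates that were also homozygous for floxed Col5a1, and every group received tamoxifen and a full-thickness excision of dorsal skin. Mice of both sexes were 8 to 12 weeks old. At day 14 after wounding there were 7 WT wounds, 7 Col5a1CKO wounds and 3 Col5a1CKO wounds injected at day 3 with cultured WT skin fibroblasts. Per the study's methods, PBS was given in place of cells to the mice that served as controls for the transfer. The day 19 wounds numbered 3 from WT and 3 from Col5a1CKO mice. A further experiment at day 14 had 4 WT wounds with vehicle, 4 Col5a1CKO wounds with vehicle and 4 Col5a1CKO wounds from mice given cilengitide, an inhibitor of integrins αvβ3 and αvβ5, at 20 mg/kg daily. The sample titles were followed for the groups, since the treatment field assigns the transferred fibroblasts to the Col5a1CKO wounds of day 19.

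Receptors coupled to G proteins relay signals from chemokines, hormones, lipids and vasoactive peptides by loading the Gα subunit with GTP. RGS proteins bind the active Gα and speed up its hydrolysis of GTP, which ends the signal. Rgs1, Rgs2, Rgs3, Rgs4, Rgs5, Rgs16 and Rgs18 belong to the R4 subfamily and Rgs10 to the R12 subfamily. In skin, Rgs5 is known as a marker of pericytes, Rgs1 as a lymphocyte and myeloid regulator of chemokine receptors, and Rgs18 as a gene of platelets and megakaryocytes.

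Of the 8 genes, 6 lie on chromosome 1. On the NCBI37/mm9 build used for the counts, with gene bounds from GENCODE, Rgs2 (chr1:145846468-145851291), Rgs1 (chr1:146091102-146096372) and Rgs18 (chr1:146599813-146622565) lie in one cluster on the minus strand. Rgs16 (chr1:155587479-155592598, plus strand) lies 42.7 kb beyond Rgs8. Rgs5 (chr1:171585632-171625944, plus strand) and Rgs4 (chr1:171671608-171677773, minus strand) are neighbours separated by 45.7 kb. Rgs3 (chr4:62220881-62364052, plus strand) and Rgs10 (chr7:135517135-135562272, minus strand) lie alone.

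The 250 bases before the start site are shown for Rgs16 and Rgs2, both called between the vehicle groups and with cilengitide, and for the neighbours Rgs4 and Rgs5, whose levels moved together. Promoter sequences from RefSeq on GRCm38.p6 matched 6 of the 8 genes. Capitals mark the letters of 6 motifs wherever they occur on either strand. The CCAAT box was searched by its own 5 letters, and the GC box as GGGCGG. The TATA box was searched as TATAAA. The core of a cyclic AMP response element was searched as TGACG. The AP-1 site was searched as TGANTCA. The NF-kB pattern, given by name alone, left its inner letters free, so a match to it is a loose one.
Rgs16 promoter, chr1:153740103-153740352, plus strand: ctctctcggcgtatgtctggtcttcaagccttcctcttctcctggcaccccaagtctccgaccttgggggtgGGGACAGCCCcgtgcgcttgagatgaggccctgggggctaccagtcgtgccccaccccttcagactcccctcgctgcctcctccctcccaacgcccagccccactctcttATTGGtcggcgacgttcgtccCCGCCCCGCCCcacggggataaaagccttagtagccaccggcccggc
Rgs2 promoter, chr1:144004150-144004399, minus strand: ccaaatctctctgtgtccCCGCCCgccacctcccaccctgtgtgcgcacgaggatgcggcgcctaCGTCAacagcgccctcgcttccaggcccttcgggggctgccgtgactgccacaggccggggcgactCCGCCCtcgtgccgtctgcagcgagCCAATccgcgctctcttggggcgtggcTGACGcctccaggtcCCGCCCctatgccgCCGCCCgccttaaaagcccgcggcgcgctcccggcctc
Rgs4 promoter, chr1:169747643-169747892, minus strand: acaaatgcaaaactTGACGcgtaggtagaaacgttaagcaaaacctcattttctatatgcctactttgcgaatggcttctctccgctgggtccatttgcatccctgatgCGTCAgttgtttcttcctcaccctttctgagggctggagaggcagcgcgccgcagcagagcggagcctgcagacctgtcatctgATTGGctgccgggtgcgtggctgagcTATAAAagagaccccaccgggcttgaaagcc
Rgs5 promoter, chr1:169655251-169655500, plus strand: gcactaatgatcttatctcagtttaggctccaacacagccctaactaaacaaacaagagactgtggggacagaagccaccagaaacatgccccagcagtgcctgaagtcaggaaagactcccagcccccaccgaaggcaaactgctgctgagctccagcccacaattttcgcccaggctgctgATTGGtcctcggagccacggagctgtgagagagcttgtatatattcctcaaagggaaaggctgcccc

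All 4 promoters held a CCAAT box, a motif found in 33.8% of 32851 mouse promoter windows of the same length. Rgs2 held 4 GC boxes and Rgs16 held 2 that overlap each other, and 32.7% of all windows hold at least 1. The core of a cyclic AMP response element occurred at 2 places in Rgs2 and 2 in Rgs4, against 17.8% of windows with any. Rgs16 alone of the 4 held a match to the loose NF-kB pattern (17.6% of windows). Rgs4 alone held a TATA box (12.4%), and none held the AP-1 site (6.75%). These matches describe the letters in these windows only.

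Total counts over one row per symbol were 15043531 to 35700337 per wound in the table of the day 14, fibroblast and day 19 wounds and 51211600 to 68266760 in the table of the cilengitide experiment. The wounds of the first table fell into 2 library sets. The median level of GC-rich genes relative to that of GC-poor genes was lower in 9 wounds than in the other 14. The 9 were, of day 14, a to d from WT and a to e from Col5a1CKO mice. The gap between the sets was 1.54 (log2), and the next largest gap between wounds was 0.395. All wounds with fibroblasts and all wounds of day 19 were in the upper set. Within the upper set at day 14, the 3 WT wounds carried RNA of Y-linked genes and the 2 Col5a1CKO and 3 fibroblast wounds did not, so sex and genotype cannot be told apart there. At day 19, 1 WT wound and no Col5a1CKO wound carried this RNA. Col5a1, the deleted gene, had a day 14 median of 851 CPM (counts scaled to library size) in WT wounds, the extremes being 345 and 2404, and of 369 CPM in Col5a1CKO wounds, the extremes being 172 and 667, so the groups overlapped. Its fitted difference was -1.43 ± 0.49 (log2, SE) and did not pass the test (adjusted p = 0.0756, edgeR). In bulk tissue, fewer cells of a type and less RNA per cell cannot be told apart.

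To compare the genes with each other, counts were scaled to transcript length as well as to library size (RPKM). In WT wounds at day 14 the median RPKM levels were 30.2 for Rgs5, 23.1 for Rgs10, 7.84 for Rgs2, 2.63 for Rgs18, 2.03 for Rgs1, 1.87 for Rgs4, 1.10 for Rgs16 and 1.01 for Rgs3. This order of medians pools the library sets. In the WT wounds of the upper set Rgs5 had 2.64, 4.79 and 6.56 RPKM, below Rgs10 (19.1, 17.2 and 16.7 RPKM), and Rgs4 (0.48, 0.54 and 0.73 RPKM) was below Rgs3 (0.96, 1.25 and 1.01 RPKM). In Col5a1CKO wounds at day 19 the median RPKM of Rgs16 was 23.9, behind Rgs5 at 54.0 and Rgs10 at 30.4.

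Rgs16, which acts on Gi and Gq and is known to be induced by immune stimulation, was low in every WT group. Its levels were 1.07 to 5.57 CPM in the 7 WT wounds at day 14 (median 3.89), and 9.21 to 52.6 CPM in the 7 Col5a1CKO wounds (median 17.4). The 3 wounds with WT fibroblasts had 18.9, 23.1 and 16.1 CPM. The ranges of the WT wounds and both Col5a1CKO groups did not overlap at day 14. At day 19 the WT wounds had 6.73, 7.75 and 7.94 CPM and the Col5a1CKO wounds 88.5, 70.0 and 79.2 CPM. The order of the medians was Col5a1CKO at day 19, the fibroblast group, Col5a1CKO at day 14, WT at day 19 and WT at day 14. Of these neighbours the fibroblast group and Col5a1CKO at day 14 overlapped, and the others did not.

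At day 14 the Rgs16 level of Col5a1CKO wounds exceeded that of WT wounds by 2.85 ± 0.53 (log2, SE), with an adjusted p of 0.00691 in edgeR's quasi-likelihood test over 14367 genes. A gene was called where the adjusted p was under 0.05 and the change at least 2-fold, and Rgs16 kept its call when any 1 of the 14 wounds was left out (2.57 to 3.01). The lower library set gave 2.88 ± 0.69 (adjusted p = 0.0302, edgeR) and the upper set, with 5 wounds, 2.77 ± 0.78 (adjusted p = 0.0815). The estimates of the sets differed by less than their errors, and that of the upper set did not pass the test. At day 19 the fitted difference, on which the gene was picked, was 3.47 ± 0.17 (log2, SE), 3.38 to 3.56 with any 1 wound left out. The day 19 difference exceeded that of day 14 by 0.61 ± 0.79, less than its error, which is given as a description.

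**Figure D1:**
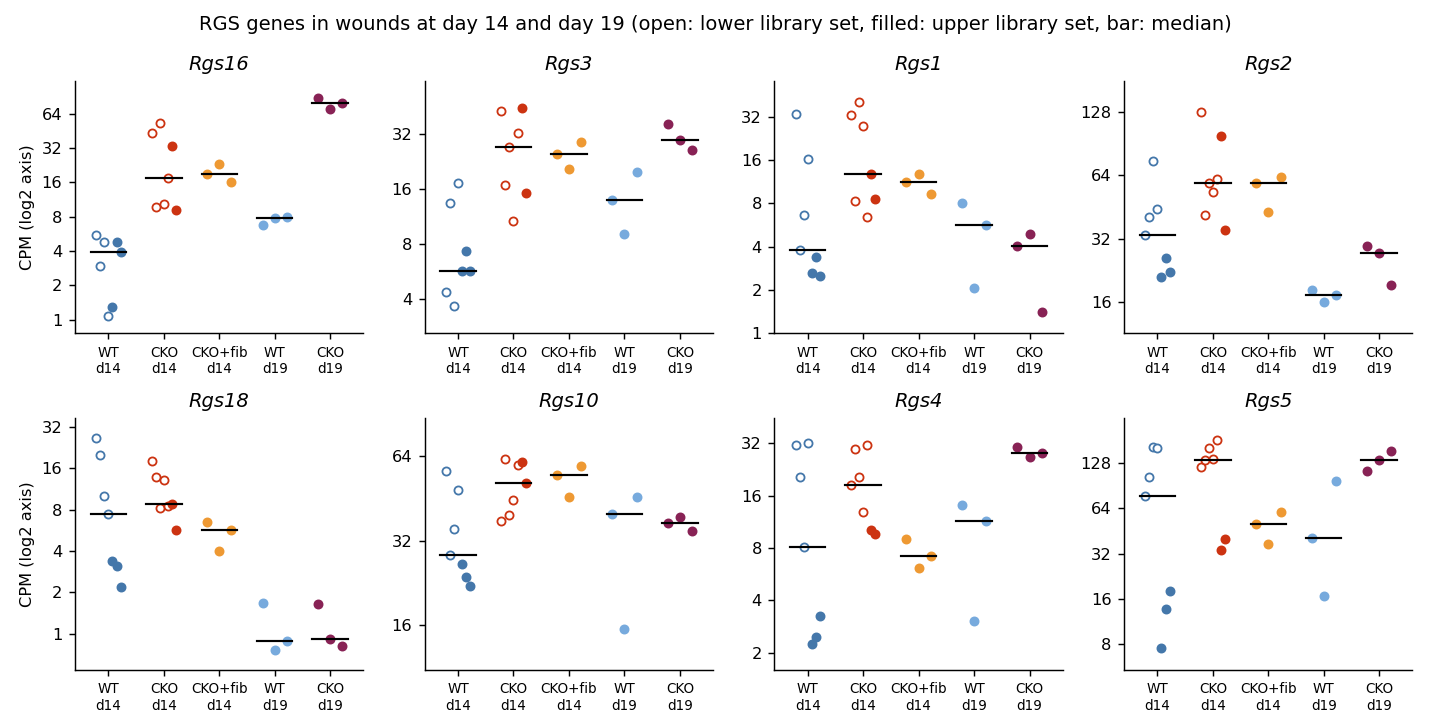
Levels of the 8 genes in CPM on a log2 axis, one point per wound and a bar at the median; open points are the lower and filled points the upper library set. Rgs16 lies between 70.0 and 88.5 CPM in the 3 Col5a1CKO wounds of day 19 and under 8 CPM in the WT wounds. Rgs1, Rgs2, Rgs4, Rgs5, Rgs10 and Rgs18 split by library set within the WT wounds of day 14.

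Rgs3, a regulator of Gi and Gq with several isoforms, followed the same genotype. It had 3.67 to 17.3 CPM in WT wounds at day 14 (median 5.71) and 10.7 to 44.4 CPM in Col5a1CKO wounds (median 27.2), so that the ranges overlapped. The fitted difference of 1.73 ± 0.43 (log2, SE) was called (adjusted p = 0.0207, edgeR). Without Col5a1CKO replicate a the adjusted p was 0.0503, and within the library sets the differences were 1.41 ± 0.56 (adjusted p = 0.131) and 2.35 ± 0.48 (adjusted p = 0.0507). At day 19 the WT wounds had 13.9, 9.13 and 19.8 CPM and the Col5a1CKO wounds 36.4, 29.4 and 26.2 CPM, without overlap. Rgs3 has 3 transcripts in the table. The values above are for the transcript of 3737 bases, which had the most reads, and the other transcripts, of 4704 and 4000 bases, had nearly the same counts as each other. For these the day 14 differences were 0.54 ± 0.36 (adjusted p = 0.352, edgeR) and 0.58 ± 0.37 (adjusted p = 0.318), and neither was called. At day 19, scaled to the totals of all rows, the transcript of 4704 bases had 7.58, 8.77 and 12.3 CPM in WT and 10.4, 9.21 and 13 CPM in Col5a1CKO wounds, which overlapped.

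At day 14, 2 of the 8 genes were called, Rgs16 and Rgs3, both higher, and 8.28% of the 14367 genes tested were called in either direction. The median difference over the members was 0.72 (log2), against -0.03 over all genes tested. Within the lower library set 1 member was called (Rgs16), where 6.6% of genes were called, and within the upper set 3 were called (Rgs1, Rgs4 and Rgs10), where 9.22% of genes were called. All 8 differences were positive in the upper set, from 1.32 to 2.77. In the lower set they ran from -0.40 for Rgs18 to 2.88 for Rgs16, and Rgs4 stood at -0.04. Sex differed with genotype in the upper set, and its part in these differences was not tested. At day 19 the call rule was met by 0.0198% of the 15135 genes tested. The 1 member among them was Rgs16, which had been picked on these values, so nothing is read from that count, and with 1 wound left out Rgs16 met the rule in 1 of 6 fits.

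**Figure D2:**
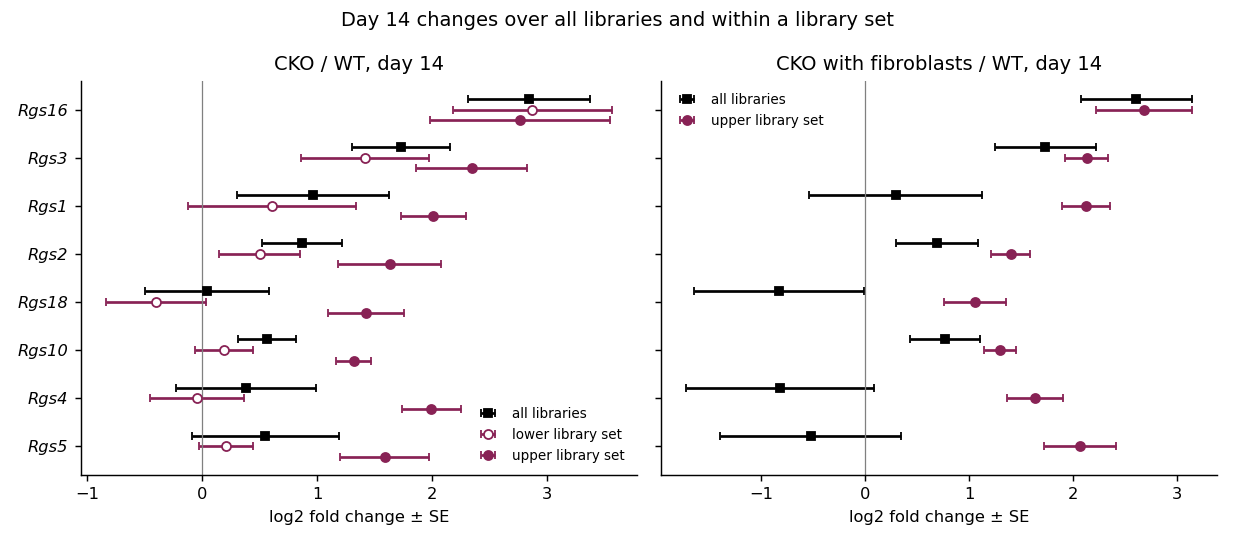
Fitted log2 differences ± SE at day 14 for all wounds (squares) and within the lower (open circles) or upper (filled circles) library set; left, Col5a1CKO against WT, and right, Col5a1CKO with fibroblasts against WT. Rgs16 lies between 2.60 and 2.88 in every fit shown, while Rgs4, Rgs5 and Rgs18 are below 0 over all wounds on the right and between 1.05 and 2.06 in the upper set.

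Rgs4 and Rgs5 act on Gi and Gq in vascular and other contractile cells, and their levels divided the WT wounds by library set. Rgs5 had 76.9 to 164 CPM in the 4 WT wounds of the lower set and 7.58, 13.6 and 17.9 CPM in the 3 of the upper set. In Col5a1CKO wounds at day 14 it had 120 to 182 CPM in the 5 of the lower set and 33.7 and 39.9 CPM in those of the upper set. The sets did not overlap in either genotype. Rgs4 showed the same split in WT wounds, with 8.14 to 32.1 CPM in the lower set and 2.24, 2.48 and 3.24 CPM in the upper set. Rgs1, Rgs2, Rgs10 and Rgs18 also split by set in the WT wounds of day 14. Rgs10 had 28.5 to 56.7 CPM in the lower set and 22.1 to 26.5 CPM in the upper set. For Rgs18 these were 7.40 to 26.6 and 2.17 to 3.38 CPM. Rgs3 and Rgs16 overlapped between the sets. Over all wounds of day 14 the genotype difference was 0.55 ± 0.64 (log2, SE) for Rgs5 and 0.38 ± 0.61 for Rgs4, and neither passed the test (adjusted p = 0.61 and 0.727, edgeR). Within the upper set it was 1.59 ± 0.39 for Rgs5 (adjusted p = 0.0645) and 2.00 ± 0.26 for Rgs4 (adjusted p = 0.0370, called).

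At day 19, where all wounds were in the upper set, Rgs5 had 40.4, 16.8 and 97.1 CPM in WT wounds and 112, 134 and 155 CPM in Col5a1CKO wounds. Rgs4 had 14.2, 3.03 and 11.5 CPM in WT wounds and 30.7, 26.6 and 28.1 CPM in Col5a1CKO wounds. For both genes every Col5a1CKO wound was above every WT wound. The share of all genes that separate so at day 19 was not counted, here or for Rgs2 and Rgs3, so nothing is read from it. The fitted day 19 differences were 1.41 ± 0.64 for Rgs5 and 1.61 ± 0.57 for Rgs4 (log2, SE), given as descriptions. Of 11 pericyte and smooth muscle markers, 1 (Cnn1, 3.97 ± 0.28) was called higher at day 19, where 0.0198% of all genes were called. Cspg4 (0.01), Notch3 (0.21) and Kcnj8 (-0.01) had the smallest differences, and the other markers ran from 1.10 to 3.97. The summed level ran from 796 to 1004 CPM for WT and from 2386 to 3762 CPM for Col5a1CKO. The day 14 sums ran from 356 to 1301 CPM for WT and from 962 to 2769 CPM for Col5a1CKO. At that day 5 of 11 markers were called higher, beside 8.28% of all genes. The 5 were Pdgfrb, Mcam, Acta2, Myh11 and Cnn1, while Notch3 stood at -1.09 ± 0.63, not called. Of 6 fibroblast markers none was called at day 19 (median 1.23), and 1 was called higher at day 14 (median 0.70). Their day 19 sums ran from 8544 to 74186 CPM for WT and from 72932 to 100077 CPM for Col5a1CKO. The day 14 sums ran from 4663 to 48319 CPM and from 19013 to 64776 CPM, so the groups overlapped at both days. The part of either kind of cell in the levels of Rgs4 and Rgs5 was not tested.

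Across the 23 wounds of the first table, Rgs4 and Rgs5 had the highest correlation of any pair of members (r = 0.864 on log2(CPM + 1)), as a description over wounds that share the library sets and include the day 19 wounds on which Rgs16 was picked. Rgs16 and Rgs3 followed with r = 0.748, and Rgs18 and Rgs2 with r = 0.729. Among all genes averaging 5 CPM or more, those most like Rgs16, over wounds that include those it was picked on, were Kalrn (r = 0.928), Selp (0.912), Spry4 (0.888), Sele (0.885) and Tmem2 (0.885). Selp and Sele encode P- and E-selectin, adhesion molecules of activated endothelium, and Spry4 encodes an inhibitor of receptor tyrosine kinase signalling. Of 6 endothelial markers 4 were called higher in Col5a1CKO wounds at day 14, beside 8.28% of all genes. Their sums at that day ran from 72.9 to 248 CPM for WT and from 246 to 600 CPM for Col5a1CKO. At day 19 the sums ran from 310 to 664 CPM for WT and from 741 to 1189 CPM for Col5a1CKO, and none of the 6 was called (0.0198% of all genes). With cilengitide against vehicle none of the 6 was called either (median -0.63), where 13.1% of all genes were called. The part of these cells in the level of Rgs16 was not tested. The genes most like Rgs5 were Edil3 (0.957), Zfp9 (0.955), Postn (0.953), Cdh11 (0.951) and Matn2 (0.948), of which Postn encodes the matrix protein periostin and Cdh11 a cadherin of mesenchymal cells. Those most like Rgs4 were Mecom (0.926), Zfp449 (0.914), Rian (0.911), Zfhx4 (0.910) and Plcl1 (0.910).

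Rgs1 and Rgs2, a regulator of chemokine receptors and an inhibitor of Gq signalling, varied widely in the wounds of day 14. Rgs1 ran from 2.50 to 33.9 CPM in WT (median 3.81) and from 6.48 to 40.8 CPM in Col5a1CKO wounds (median 12.8), and Rgs2 had 21.1 to 74.8 CPM (median 33.2) and 35.1 to 129 CPM (median 58.9). The ranges overlapped for both genes, and neither difference over all wounds was called (Rgs1 0.97 ± 0.66, adjusted p = 0.362, and Rgs2 0.87 ± 0.35, adjusted p = 0.123, edgeR). In WT wounds both genes split by library set. Rgs1 had 3.81 to 33.9 CPM in the lower set and 2.50 to 3.38 CPM in the upper set. Rgs2 had 33.2 to 74.8 and 21.1 to 25.9 CPM. Within the upper set, where sex differed with genotype, the differences were 2.01 ± 0.285 for Rgs1 (adjusted p = 0.0373, edgeR, called) and 1.63 ± 0.45 for Rgs2 (adjusted p = 0.0775). Within the lower set they were 0.61 ± 0.73 and 0.50 ± 0.36, neither called. At day 19 Rgs1 had 8.09, 2.07 and 5.64 CPM in WT and 4.06, 4.90 and 1.4 CPM in Col5a1CKO wounds. It was the only member whose fitted day 19 difference was negative (-0.56 ± 0.68), and the ranges overlapped. Rgs2 had 18.3, 16.0 and 17.3 CPM in WT and 29.4, 27.3 and 19.2 CPM in Col5a1CKO wounds at day 19, which did not overlap. The genes most like Rgs2 were Crem (r = 0.909), Stk17b (0.900), Sri (0.896), 5430427O19Rik (0.894) and Ccr1 (0.893), and Crem encodes a transcription factor of the cyclic AMP response. Those most like Rgs1 were Ccl6 (0.869), AI662270 (0.866), Gm885 (0.858), AA467197 (0.839) and Ccl9 (0.834), of which Ccl6 and Ccl9 encode chemokines of myeloid cells.

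Rgs10, an R12 member known from macrophages, microglia and platelets, was called in none of the 9 comparisons over all wounds, although it was called higher than in WT within the upper library set at day 14, in Col5a1CKO wounds (1.32) and in the fibroblast group (1.29). It had 22.1 to 56.7 CPM in WT wounds at day 14 (median 28.5) and 37.6 to 62.7 CPM in Col5a1CKO wounds (median 51.5). The ranges overlapped and the difference of 0.57 ± 0.25 (log2, SE) was not called (adjusted p = 0.159, edgeR). Rgs10 was most like Fcrls (r = 0.903), Lsp1 (0.858), Oaf (0.851), BC096441 (0.849) and Dab2 (0.842), and Fcrls and Lsp1 are genes of myeloid cells. At day 19 it had 39.7, 15.5 and 45.7 CPM in WT and 36.9, 39.0 and 34.7 CPM in Col5a1CKO wounds, with the Col5a1CKO values inside the WT range.

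Rgs18, known from platelets and megakaryocytes, was called lower at day 19 than at day 14 in the comparison of all Col5a1CKO wounds. In Col5a1CKO wounds it had 5.73 to 18.0 CPM at day 14 (median 8.81) and 1.63, 0.916 and 0.819 CPM at day 19. The ranges did not overlap, and the change of -3.28 ± 0.46 (log2, SE) was called (adjusted p = 0.00858, edgeR). The counts behind the day 19 values were 17 to 31 reads per Col5a1CKO wound. In WT wounds it had 2.17 to 26.6 CPM at day 14 (median 7.40) and 1.66, 0.767 and 0.882 CPM at day 19, again without overlap, and the change of -3.22 ± 1.01 did not pass the test (adjusted p = 0.0819). Within the upper library set the changes were -2.65 ± 0.45 in Col5a1CKO (adjusted p = 0.0839) and -1.24 ± 0.43 in WT wounds (adjusted p = 0.0673), where the estimate for Rgs5 was larger in size (2.15, adjusted p = 0.0585). Leaving out Col5a1CKO replicate a, b or c of day 19 gave -3.64, -3.15 and -3.09, with adjusted p of 0.0591, 0.0787 and 0.0609. Of 7 platelet and megakaryocyte markers 4 were tested between days in Col5a1CKO wounds, and edgeR called none. Their summed level was 96.8 to 617 CPM in Col5a1CKO wounds at day 14 and 74.1 to 125 CPM at day 19. Of 6 neutrophil markers 1 was called lower between these days (median -2.63), beside 5.72% of all genes. The part of either cell type in the change of Rgs18 was not tested. The genes most like Rgs18 over the 23 wounds were Clec2d (r = 0.932), Mrpl33 (0.931), Mat2b (0.927), Gng10 (0.927) and Gpr34 (0.926).

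From day 14 to day 19, 1 of the 8 genes (Rgs18) was called in Col5a1CKO wounds, as were 5.72% of the 15327 genes tested. Rgs1 changed by -2.51 ± 0.73 (adjusted p = 0.0578, edgeR) and Rgs2 by -1.44 ± 0.42 (adjusted p = 0.0582), neither of which passed. The lowest day 14 values of both genes in Col5a1CKO wounds were above the highest day 19 values. Within the upper library set, which held all day 19 wounds, Rgs1 changed by -1.59 ± 0.59 (adjusted p = 0.206, edgeR). Rgs2 changed there by -1.37 ± 0.51 (adjusted p = 0.203). For Rgs16, which was picked on day 19 wounds, the fitted change was 1.65 ± 0.54, with no test. In WT wounds edgeR called none of the 8, while 5.74% of the 15180 genes tested were called. At an unadjusted p under 0.05 there were 2 members, against 23.6% of all genes, and DESeq2 called 1, Rgs18, against 13% of all genes. Within the upper library set, 2 members were called in WT wounds, Rgs3 (1.34 ± 0.36) and Rgs4 (2.01 ± 0.61), where 24.3% of genes were called. In that set edgeR called none of the members in Col5a1CKO wounds, as for all 15240 genes tested (0%). Leaving aside Rgs16, 6 of 7 members had an unadjusted p under 0.05 there, as did 23.8% of all genes. The difference between the genotype effects of the 2 days was called for no member and for 0% of 15954 genes, of which 5.89% had an unadjusted p under 0.05. The smallest unadjusted p among the members was 0.193, for Rgs1. DESeq2 called none of the 4 members to which it gave an adjusted p, and 0.226% of all genes.

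**Figure D3:**
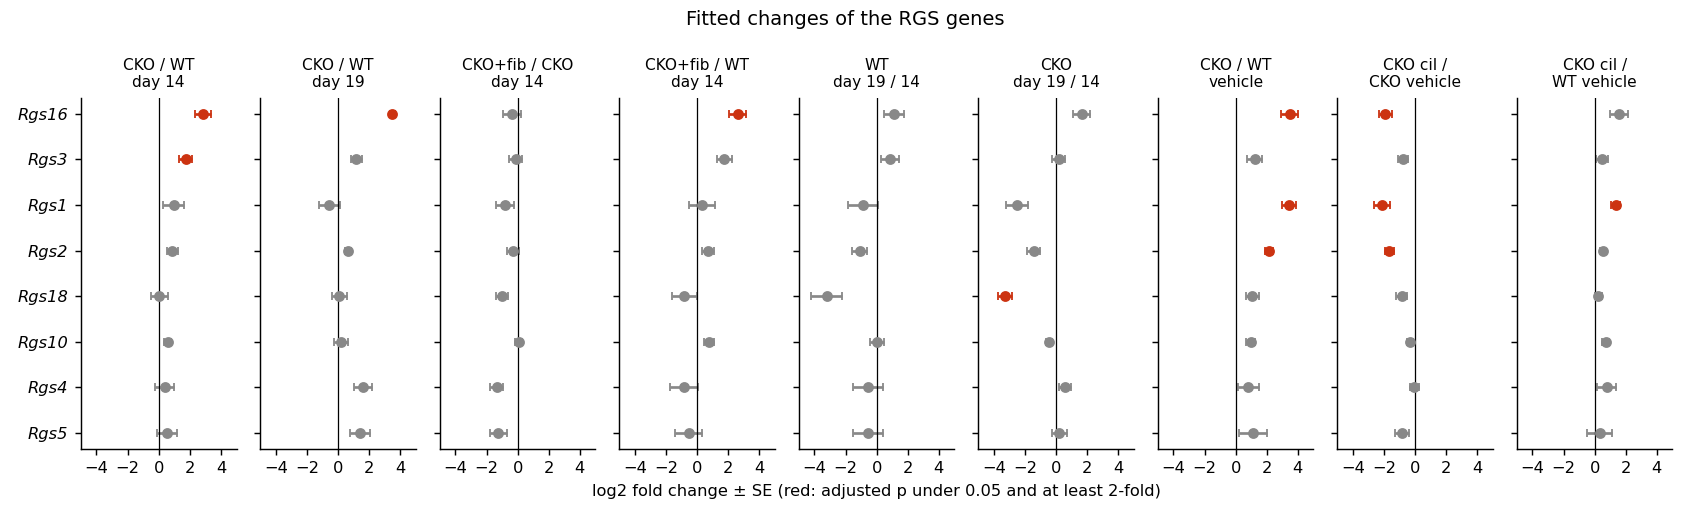
Fitted log2 differences ± SE of the 8 genes in the 9 comparisons, red where the adjusted p was under 0.05 and the change at least 2-fold; the groups named first in each title are divided by those named second. Leaving the day 19 panel aside, Rgs16 is to the right in each comparison of a Col5a1CKO group with WT. Rgs1, Rgs2 and Rgs16 move left with cilengitide. The day 19 panel includes the difference on which Rgs16 was picked, so its red mark there is not read as a test.

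The transfer of WT fibroblasts was compared with Col5a1CKO wounds without transfer to ask whether the injected cells altered the day 14 response. edgeR called none of the 8 genes and none of 15659 genes (0%). At an unadjusted p under 0.05 there were 3 members, against 12.8% of all genes, and DESeq2 called none, against 0.121% of all genes. The 3 were Rgs4 (-1.35 ± 0.42, adjusted p = 0.365), Rgs5 (-1.23 ± 0.52, adjusted p = 0.376) and Rgs18 (-1.01 ± 0.38, adjusted p = 0.365), all lower with fibroblasts. Rgs4 had 9.0, 6.11 and 7.17 CPM in the fibroblast wounds, below each of the 7 Col5a1CKO wounds without transfer (9.61 to 31.3 CPM). All fibroblast wounds were in the upper library set, in which the Col5a1CKO wounds without transfer had 10.2 and 9.61 CPM. Within that set the differences were -0.35 ± 0.27 for Rgs4, 0.49 ± 0.27 for Rgs5 and -0.37 ± 0.36 for Rgs18 (adjusted p = 1.0 for each), no member had an unadjusted p under 0.05, against 0.559% of all genes, and 0% of 15559 genes were called. For Rgs5 the direction was thus the opposite within the set. Rgs16 differed by -0.38 ± 0.58 over all wounds and by -0.09 ± 0.56 within the upper set.

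Against the WT wounds of day 14, which also served as controls for the Col5a1CKO wounds without transfer, 1 member was called in the fibroblast group, as were 5.84% of the 15316 genes tested. It was Rgs16 (2.60 ± 0.54, adjusted p = 0.0149, edgeR), and with any 1 of the 3 fibroblast wounds left out its adjusted p was 0.0745 to 0.0923 (2.45 to 2.68). Rgs3 differed by 1.73 ± 0.49 (adjusted p = 0.0600), with 24.7, 20.5 and 28.7 CPM against at most 17.3 CPM in WT wounds. Within the upper set, against the 3 WT wounds e to g, all 8 members were called, from 1.05 ± 0.30 for Rgs18 to 2.68 ± 0.46 for Rgs16. In the same comparison 31% of the 15132 genes were called. The signs of Rgs4, Rgs5 and Rgs18, negative over all wounds (-0.82, -0.53 and -0.83), were positive within the set. The WT wounds of this set carried Y-linked RNA and the fibroblast wounds did not, so genotype, transfer and sex cannot be told apart in it.

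In the cilengitide experiment, Rgs16 had 3.61, 5.99, 1.08 and 2.07 CPM in WT wounds with vehicle and 34.0, 53.1, 37.7 and 19.8 CPM in Col5a1CKO wounds with vehicle. With cilengitide the Col5a1CKO wounds had 10.9, 5.6, 5.96 and 15.2 CPM. The vehicle groups did not overlap, and the cilengitide wounds lay below every Col5a1CKO vehicle wound. Rgs16 was higher in Col5a1CKO than in WT wounds with vehicle by 3.46 ± 0.57 (log2, SE, adjusted p = 0.00269, edgeR), and was lower with cilengitide than with vehicle by -1.93 ± 0.41 (adjusted p = 0.0164). Without cilengitide replicate 3 the adjusted p of the latter was 0.0510. Against WT wounds with vehicle the cilengitide wounds differed by 1.57 ± 0.55, which did not pass (adjusted p = 0.0756), and the ranges overlapped.

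Rgs1 had 4.42, 4.26, 3.59 and 3.51 CPM in WT wounds with vehicle, 16.7, 25.8, 72.8 and 60.0 CPM in Col5a1CKO wounds with vehicle and 8.19, 9.15, 6.34 and 16.7 CPM with cilengitide. Every Col5a1CKO vehicle wound was above every WT wound, and the highest cilengitide wound was just below the lowest Col5a1CKO vehicle wound. The genotype difference was 3.42 ± 0.48 (adjusted p = 0.00149, edgeR) and the cilengitide difference -2.11 ± 0.53 (adjusted p = 0.0258). The latter lost its call without Col5a1CKO vehicle replicate 3 or without cilengitide replicate 1, 2 or 3 (adjusted p 0.0643 to 0.0749). Rgs1 remained above the WT level with cilengitide, by 1.35 ± 0.29 (adjusted p = 0.0234), a call lost in 5 of the 8 fits with 1 wound left out (WT vehicle replicate 3 or 4, or cilengitide replicate 2, 3 or 4, adjusted p 0.0528 to 0.0593).

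Rgs2 had 21.4, 24.3, 17.5 and 21.4 CPM in WT wounds with vehicle, 81.0, 53.7, 123 and 129 CPM in Col5a1CKO wounds with vehicle and 26.9, 24.3, 30.4 and 40.2 CPM with cilengitide. The Col5a1CKO vehicle wounds stood apart from both other groups. The genotype difference was 2.14 ± 0.28 (adjusted p = 0.00129, edgeR) and the cilengitide difference -1.66 ± 0.30 (adjusted p = 0.0106), and both were called with any 1 wound left out. Against WT wounds the cilengitide wounds differed by 0.52 ± 0.17 (adjusted p = 0.0593). Across the 12 wounds Rgs1 and Rgs2 had r = 0.950 on log2(CPM + 1), as a description over wounds that share the groups.

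**Figure D4:**
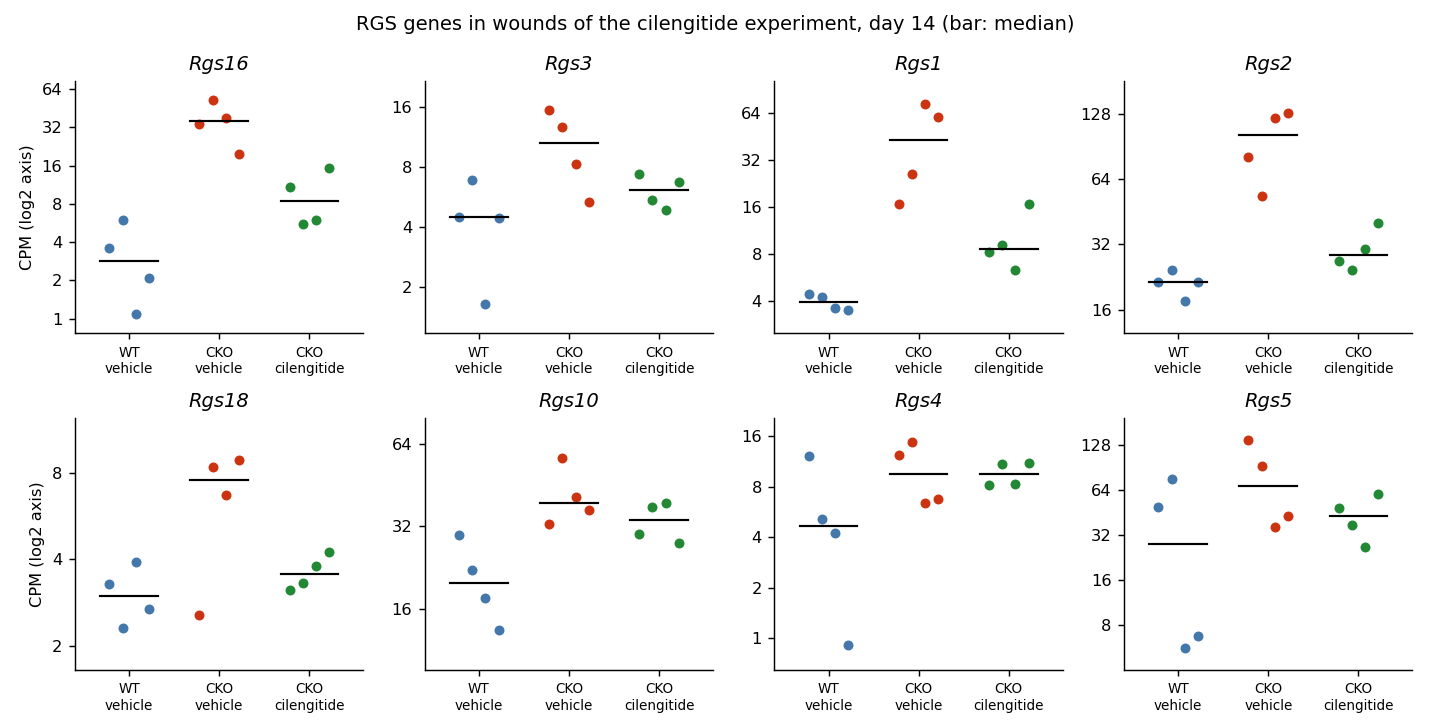
Levels of the 8 genes in CPM on a log2 axis in the cilengitide experiment, one point per wound and a bar at the median. Rgs1, Rgs2 and Rgs16 are highest in all 4 Col5a1CKO wounds with vehicle, and Rgs4 and Rgs5 overlap between the 3 groups.

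Of the 8 genes, 3 were called between the vehicle groups, all higher in Col5a1CKO, where 30.9% of the 15434 genes tested were called. The same 3 were called lower with cilengitide than with vehicle in Col5a1CKO wounds, where 13.1% of 15563 genes were called. The comparisons share the Col5a1CKO vehicle wounds. Sex was not balanced between these groups, as given under other observations, and its part was not tested. The members' median was 1.18 (log2) in the first, against 0.02 over all genes, and -0.85 in the second, against -0.06. Between cilengitide and WT wounds 1 member (Rgs1) was called, as were 8.58% of 15514 genes. Rgs10 was higher in Col5a1CKO than in WT wounds with vehicle by 0.97 ± 0.28 (adjusted p = 0.0227, edgeR), short of the 2-fold minimum, and had 29.8, 22.1, 17.5 and 13.4 CPM in WT against 32.5, 56.8, 40.8 and 36.8 CPM in Col5a1CKO wounds. Rgs3 (1.22 ± 0.48, adjusted p = 0.0695) and Rgs18 (1.08 ± 0.39, adjusted p = 0.0506) did not pass, nor did Rgs4 (0.81 ± 0.68, adjusted p = 0.351) or Rgs5 (1.13 ± 0.89, adjusted p = 0.32). Rgs5 had 49.4, 76.4, 5.61 and 6.74 CPM in WT and 140, 92.7, 36.2 and 43.1 CPM in Col5a1CKO wounds with vehicle, and Rgs18 had 3.29, 2.31, 3.90 and 2.68 CPM in WT and 2.56, 8.36, 6.71 and 8.90 CPM in Col5a1CKO wounds.

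Markers of some other cells moved with these groups. Between the vehicle groups 30.9% of all genes were called. The summed level of 6 neutrophil markers ran from 96.1 to 2202 CPM in WT wounds with vehicle, 1586 to 44814 CPM in Col5a1CKO wounds with vehicle and 3150 to 7263 CPM with cilengitide, and 5 of them were called higher in Col5a1CKO. The 6 monocyte and macrophage markers, all called higher, summed to 278 to 1032, 3422 to 8281 and 1416 to 2030 CPM. The 5 keratinocyte markers went the other way, with 58323 to 94800, 58.6 to 11377 and 31584 to 65404 CPM, and 3 were called lower in Col5a1CKO. Of 5 T cell markers 1 was called lower and none higher, and none of the mast cell or skeletal muscle markers was called. No marker of these lists was at 0 in every wound of a group. The part of these cells in the levels of Rgs1, Rgs2 and Rgs16 was not tested. Over the 12 wounds the genes most like Rgs1 were Ptpn7 (r = 0.990), Rasgrp4 (0.989), Csf2ra (0.989), Dpep2 (0.988) and Arhgap25 (0.987), genes known from leukocytes. Those most like Rgs2 were Sfxn5 (0.994), Tnfrsf9 (0.992), Fcrlb (0.991), Zswim6 (0.991) and Ogfrl1 (0.990), and those most like Rgs16 were Tacc1 (0.984), Slc39a14 (0.970), Traf4 (0.969), Wnt5b (0.969) and Kank3 (0.968). Wnt5b was also among the genes most like Rgs3 in the first table (r = 0.910), with Chst2 (0.926), Adc (0.921), Tmem173 (0.916) and Nek6 (0.904).

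The other genes of the pathway were read from fixed lists. These too were chosen with earlier results of these data known, so their counts and medians are descriptions. Of 16 G-protein coupled receptors of leukocytes, 6 were called higher and none lower in Col5a1CKO wounds of day 14 against WT, their median being 1.73 (log2) against -0.03 over all genes, of which 8.28% were called. Those with the largest changes were Ptafr, the receptor of platelet-activating factor (2.57 ± 0.55), C5ar1, the receptor of complement C5a (2.51 ± 0.59), and the chemokine receptor Cxcr2 (2.21 ± 0.50). In the fibroblast group 4 of the 16 were called higher than in WT wounds (5.84% of all genes were called), led by C5ar1 (3.58 ± 0.63), Cxcr2 (3.12 ± 0.36) and Ptafr (2.94 ± 0.55). Between the vehicle groups 14 of 16 were higher in Col5a1CKO and none lower (30.9% of all genes were called), led by the formyl peptide receptors Fpr1 (7.65 ± 1.2) and Fpr2 (7.23 ± 1.07) and by the chemokine receptor Ccr1 (5.99 ± 0.98). With cilengitide 9 of 16 were lower than with vehicle and none higher (13.1% of all genes were called), with Fpr2 at -3.71 ± 1.12, Ccr1 at -3.26 ± 0.95 and Ptafr at -2.77 ± 0.62. Against WT wounds with vehicle, 10 of the 16 were higher with cilengitide and none lower (median 1.62, 8.58% of all genes called), led by Fpr1 (3.75), Fpr2 (3.56) and Ccr1 (2.78). From day 14 to day 19 in Col5a1CKO wounds, where 5.72% of all genes were called, 3 of 16 fell, Ccr1 (-2.95 ± 0.78), the ADP receptor P2ry12 (-2.15 ± 0.54) and Ccr2 (-1.93 ± 0.52).

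Of 25 receptors of vessels, fibroblasts and smooth muscle, 21 were tested at day 14 and 4 were called higher in Col5a1CKO wounds and none lower, beside 8.28% of all genes. These were the endothelin receptors Ednrb (2.30 ± 0.45) and Ednra (1.14 ± 0.34), the sphingosine-1-phosphate receptor S1pr3 (2.01 ± 0.40) and the apelin receptor Aplnr (1.67 ± 0.35). Between the vehicle groups 9 of 24 tested were higher and 1 lower (30.9% of all genes were called), with the prostaglandin receptors Ptger2 (4.86 ± 0.64), Ptgir (3.88 ± 0.39) and Ptgfr (2.63 ± 0.71) the largest, and Lpar3, a lysophosphatidic acid receptor, lower (-4.61 ± 0.28). With cilengitide 3 of 24 were called (13.1% of all genes), of which Ptger2 (-2.96 ± 0.77) and Ptgir (-2.31 ± 0.34) were lower and Lpar3 (3.43 ± 0.38) was higher. Of 7 receptor kinases and arrestins, Arrb2, which encodes β-arrestin 2, and Adrbk2, a receptor kinase, were higher at day 14 (1.39 ± 0.27 and 1.12 ± 0.30). Between the vehicle groups 3 of the 7 were higher, Arrb2 (2.25 ± 0.39), Grk4 (1.37 ± 0.31) and Grk5 (1.15 ± 0.19), and Arrb2 was lower with cilengitide (-1.55 ± 0.35).

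Among 27 G protein subunits, 24 were tested at day 14 and Gnai3, an inhibitory α subunit, was lower in Col5a1CKO wounds (-1.06 ± 0.30), with none higher. At that day 8.28% of all genes were called. Between the vehicle groups 10 of 25 tested were higher and 4 lower, where 30.9% of all genes were called. The largest were Gng8 (2.80 ± 0.59), Gng11 (2.19 ± 0.41) and Gng2 (2.10 ± 0.34) among γ subunits, and Gna14 (-2.80 ± 0.50), Gna15 (-2.15 ± 0.44) and Gnai1 (-1.78 ± 0.21) among α subunits. With cilengitide 3 of 25 were lower and 2 higher, where 13.1% of all genes were called. Of 16 other genes with an RGS domain or bound to RGS proteins, 11 were tested at day 14 and Rgs19 was higher (1.19 ± 0.31), with none lower. Between the vehicle groups 4 of 13 tested were higher, including Rgs17 (3.09 ± 0.85), Rgs7bp (2.42 ± 0.61) and Rgs14 (2.26 ± 0.40), and 4 lower (30.9% of all genes were called), including Rgs9bp (-5.79 ± 0.44), Rgs20 (-3.45 ± 0.78) and Axin2 (-2.15 ± 0.21). Their median between the vehicle groups was 1.04, against 1.18 for the 8 genes described here. At day 14 it was -0.17, against 0.72 for the 8 genes. At day 19 it was -0.215, against 0.89 for the 8 genes, which include Rgs16, picked on that day. With cilengitide against vehicle it was -0.35, against -0.85. With cilengitide 4 of 13 were higher than with vehicle, Rgs9bp (3.53), Rgs20 (2.95), Rgs12 (1.43) and Axin2 (1.22), and 2 lower, Rgs14 (-1.71) and Rgs17 (-1.09), where 13.1% of all genes were called.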

How the data were processed

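Total RNA of punch biopsies from wounds was made into strand-specific libraries and sequenced as single-end reads of 50 bases. The authors deposited counts. Per the methods, reads were aligned with Hisat2 to NCBI37/mm9 with up to 2 mismatches and counted on exons of RefSeq genes with SeqMonk; the processing of the cilengitide libraries is not given separately in the sources used here. The first table holds counts per RefSeq transcript with lengths, and the row with the most counts was kept per symbol. The table of the cilengitide experiment holds 1 row per symbol. Rows without a symbol (0.0492% and 5.91e-05% of counts) were left out, and the tables were tested separately.

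Each pair of groups was fitted over all genes with edgeR 4.0.16 in R 4.3.3 (TMM scaling, robust quasi-likelihood test, low counts removed by filterByExpr at its minimum of 10), and p-values were adjusted by Benjamini-Hochberg over all genes tested. A gene was called at an adjusted p under 0.05 and a change of at least 2-fold. CPM values are TMM-scaled. The share of all genes whose ranges did not overlap was not counted in any comparison, so a lack of overlap is a description. Fitted differences are log2 values with the SE derived from the F statistic. The scripts were tested on simulated data. DESeq2 1.42.0, other size factors, other filters and leaving out each wound were tried as alternatives. Gene names were taken from the files, and scripts were run in Python 3.11.15 with pandas 2.3.3, numpy 2.4.6 and matplotlib 3.10.9.

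The members and gene lists were chosen with earlier results of these data known. Each member is named, and of each list at most the 3 called genes with the largest change per direction and comparison. For likeness the 5 genes with the highest r among genes averaging 5 CPM or more are named. Replicates are separate biological samples per the methods. After removal of group means, wounds with the same letter had correlations across genes of -0.461 to 0.572 at day 14 and -0.434 to -0.317 at day 19. The library sets were not removed, so these values cannot decide whether the letters are pairs. The letters were not used as pairs, except in the replicate block given below.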

Additional observations from a re-analysis of the deposited data

How the results depend on the processing

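Of 72 differences over 9 comparisons, the 67 of at least 0.1 (log2) were followed under alternatives. Outside the fits that left out 1 wound, 374 values kept their direction and side of the threshold, 26 gained and 8 lost a call, 21 turned direction and 2 moved. With 1 wound left out, 587 kept both, 14 gained and 17 lost a call, 5 turned and 1 moved. Where a value changed, the cause was not tested. With DESeq2 the members called became 3 at day 19 (9.23% of all genes), 5 between the vehicle groups (34.1%), 2 for cilengitide (14%) and 2 for the fibroblast group (13.3%) against WT, and 4 (10.8%, Col5a1CKO) and 1 (13%, WT) between days. The 3 and the 4 include Rgs16 on the day 19 wounds it was picked on, so nothing is read from them or from the other day 19 counts. At a 3-fold minimum 0 were called for cilengitide against WT. For fibroblasts against WT, 2 were called with library size only or with all transcripts summed, 6 with the library set as a covariate and 8 in the upper set. With the covariate 2 (Col5a1CKO) and 1 (WT) were called between days, and 0 and 2 in the upper set. In the lower set at day 14, 1 was called and Rgs4 stood at -0.04.

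With the covariate or in the upper set, these turned: for fibroblasts against Col5a1CKO, Rgs1 (0.06 and 0.12) and Rgs5 (0.42 and 0.49), for fibroblasts against WT, Rgs4 (1.65 and 1.63), Rgs5 (2.08 and 2.06) and Rgs18 (1.07 and 1.05), and between days in WT, Rgs1 (1.05 in both), Rgs4 (2.01 in both) and Rgs5 (2.15 in both). For fibroblasts against Col5a1CKO, Rgs3 stood at 0.13 with all transcripts summed and at 0.54 for each other transcript, an alternative chosen after seeing the data. With library size only, Rgs10 stood at -0.15 at day 19, where that scaling put the median of all genes at -0.39. The same scaling put it at 0.43 between days in WT, 0.13 at day 14 and 0.16 for fibroblasts against WT.

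With 1 wound left out, members called ranged from 1 to 3 at day 14, 0 to 2 at day 19, 3 to 5 between vehicle groups, 1 to 4 for cilengitide against Col5a1CKO, 0 to 2 for cilengitide and 0 to 2 for fibroblasts against WT, and 0 to 3 between days in Col5a1CKO. Rgs10 at day 19 ranged from -0.19 to 0.48, Rgs3 for fibroblasts against Col5a1CKO from -0.27 to 0.03, and Rgs5 for cilengitide against WT from -0.03 to 1.08. The replicate block used letters whose pairing is not known. It called 2 members at day 14 (Rgs16 and Rgs1 at 1.36, adjusted p = 0.0432 in edgeR, with Rgs3 at 1.82, adjusted p = 0.0563) and 0 at day 19. For fibroblasts against WT it called 1 (Rgs5 at -1.22, with Rgs16 at 2.11, adjusted p = 0.0501 in edgeR, and 21.7% of all genes called). For fibroblasts against Col5a1CKO it called 2 (Rgs4 at -1.61 and Rgs5 at -1.52, 16.8% of all genes called). In both fibroblast fits the block kept letters a to c only, all in the lower library set without fibroblasts and in the upper set with them, so transfer and library set cannot be told apart, and within the upper set Rgs5 stood at 2.06 and 0.49. Counts of 17 to 44 reads limit Rgs18 at day 19.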

Other observations

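In Col5a1CKO vehicle replicate 2 of the cilengitide experiment, the summed RNA of Y-linked genes was at 0 and Xist stood at 1.01 CPM. Each of the other 11 wounds of that experiment had either at least 182 CPM of Y-linked RNA or at least 135 CPM of Xist. The Rgs16 level of this wound, 53.1 CPM, was the highest of its group of 4. The other Col5a1CKO vehicle wounds all carried Y-linked RNA (224, 322 and 300 CPM) and none had Xist above 1.27 CPM. In the WT vehicle and the cilengitide groups some wounds carried Y-linked RNA and others Xist. The part of sex in the differences of this experiment was not tested.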
